A study of Mus musculus with 18 samples.

Results

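Gene expression in untreated LL2 tumours was compared with that in untreated CT26 tumours, with 3 libraries of each, in bulk RNA sequencing of whole subcutaneous mouse tumours. LL2 (LL/2 or LL-2 in the labels) is the Lewis lung carcinoma line, which arose in a C57BL/6 mouse, and CT26 is an undifferentiated colon carcinoma line of BALB/c origin. The study sequenced 18 libraries from LL2, CT26 and CT26-NY-ESO-1 tumours, with or without injection of OK-432, a lyophilised preparation of Streptococcus pyogenes, and the 6 libraries used here are the LL2 and CT26 controls, which had no OK-432. The tumours of both groups were collected on day 14. The labels name BALB/cJ and C57BL/6J as the host mice without stating which line went into which strain, and they give no genetic modification of a host and no control injection. The line and, as far as its origin goes, the strain of its host differed together, so their shares in any difference cannot be told apart. The samples are labelled as tumour microenvironment, so each library holds RNA of tumour cells and of host cells in unknown proportions, and fewer cells of a type and less RNA per cell cannot be told apart.

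Of 55291 genes in the deposited table, 15550 reached 1 TPM in 3 or more of the 6 libraries and were tested. TPM, transcripts per 1000000 transcripts, is a level scaled for transcript length and to the same total in every library. Differences are LL2 minus CT26 on the log2(TPM + 1) scale, which understates the change of low genes, and a ± after a difference gives its standard error. Adjusted p-values are Benjamini-Hochberg values of limma's moderated test over the 15550 genes. Whether each library is a mouse of its own is not stated in the labels, so a p-value measures the spread among the libraries sequenced, which may be technical in part.

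As background, carcinoma lines keep few of the features of the epithelium they came from, and Krt8 and Krt18, the paired keratins of simple epithelia, are among those most often kept. Tumour cells and the host cells around them also answer interferons: type I interferons act mainly at interferon-stimulated response elements in promoters and interferon-gamma at gamma-activated sites, and both raise the genes of antigen presentation on MHC class I. BALB/c and C57BL/6 mice carry different MHC haplotypes, and C57BL/6 mice are known not to express H2-Ea, Ifi202b and Gbp2b.

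The 6 libraries separated by tumour, with 93.3% of the variance on the first principal component. Across the tested genes, which are not independent replicates, Pearson's r was 0.992 (median) within groups and 0.858 between LL2 and CT26. Each library listed between 24036 and 25260 genes above 0, and depth is unknown because TPM keeps none. Of the tested genes, 1314 were called higher in LL2, at an adjusted p under 0.05 and a difference of at least 2-fold, which is 8.45% of the tested genes, and 2392 were called lower, which is 15.4%. Without the fold criterion 10895 genes (70.1%) passed the test, 4612 (29.7%) higher and 6283 (40.4%) lower, and in 11516 genes (74.1%) the LL2 and CT26 libraries did not overlap. The median difference over all tested genes was -0.09. It was 0.01 after scaling by the median of ratios and 0.08 after quantile normalization, a shift of 0.17 in the second case, so the differences below are read against this median. Higher genes made up 35.5% of the 2-fold calls as deposited, 41.1% with median-of-ratios scaling and 46.1% with quantile normalization. Unless another threshold is named, called, higher and lower below mean past the adjusted p and the 2-fold difference, and each list's counts are to be read against the 8.45% and 15.4% of the tested genes.

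**Figure D1:**
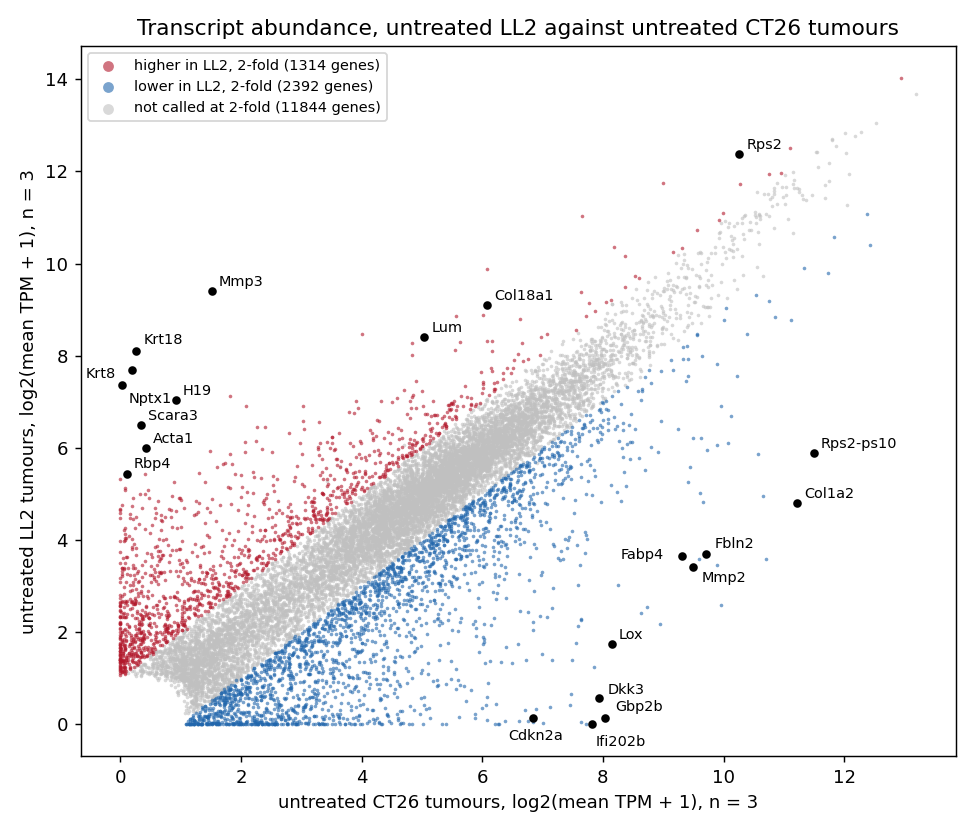
Each point is 1 of the 15550 tested genes, at log2 of its mean TPM + 1 over the 3 LL2 libraries (vertical axis) and over the 3 CT26 libraries (horizontal axis), with the 1314 genes called higher in LL2 in red and the 2392 called lower in blue. Labelled genes far from the diagonal include Mmp3 and Krt18 on the LL2 side and Gbp2b, Dkk3 and Cdkn2a on the CT26 side.

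The labels were checked against markers of the tissues the lines came from. Of 17 lung epithelial markers, 6 were tested, and 6 others, Nkx2-1, Sftpa1, Sftpd, Scgb1a1, Scgb3a2 and Slc34a2, were listed at 0 in all 6 libraries; they encode the lung transcription factor, surfactant proteins, club cell proteins and a phosphate transporter. Foxa2, an endoderm factor of the lung list, had 5.22, 5.35 and 4.91 TPM in LL2 and was listed at 0 in the 3 CT26 libraries. Aqp5, a water channel of alveolar type I cells, was lower in LL2, with 0.0618 ± 0.0578 TPM in LL2 and 66.5 ± 9.58 TPM in CT26 (SD, n = 3 each). Of 18 intestinal markers 3 were tested, and 7, among them Cdx1 and Hnf4a, transcription factors of the gut, were listed at 0 in all 6 libraries. Cdh17, the intestinal cadherin, averaged 0.0132 TPM in LL2 and 2.01 TPM in CT26. Hopx, of the lung list, averaged 67.8 TPM in LL2 and 13.1 TPM in CT26. The defining transcription factors Nkx2-1, of lung, and Cdx1, of intestine, were thus listed at 0. Foxa2 was present in LL2, Cdh17 in CT26 and Hopx in both tumours, while Aqp5, of the lung list, was high in CT26 only. Of the 6 tested lung markers 2 were higher and 2 lower in LL2. The whole lung list summed to 111 to 116 TPM in LL2 and 124 to 148 TPM in CT26. Of the 3 tested intestinal markers 1, Cdh17, was lower and none was higher. The whole intestinal list summed to 20.4 to 21.3 TPM in LL2 and 17.5 to 20.7 TPM in CT26. The lung list as a whole thus did not follow the labels. The call of Cdh17, lower in LL2, was lost with a pseudocount of 5.

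Cdkn2a, the gene of the cyclin-dependent kinase inhibitor p16INK4A and of p19ARF, which stabilises p53, was near 0 in LL2 and high in the libraries labelled CT26. Cdkn2a had 0.204, 0.0825 and 0 TPM in the LL2 libraries, against 128, 105 and 109 TPM in the CT26 libraries (chr4:89274471-89294653, mm10). The groups stood far apart, by -6.71 ± 0.112 (limma adjusted p = 5.38e-10). The CT26 line has been described with a homozygous deletion of Cdkn2a, so the level in the libraries labelled CT26 goes against that description. The CT26-NY-ESO-1 control libraries, from a line named as a derivative of CT26, had 1.07 to 1.91 TPM. CT26 below means the libraries labelled so. The neighbouring Cdkn2b, which encodes the inhibitor p15INK4B, had 0.142, 0.241 and 0.337 TPM in LL2, against 19.5, 14.4 and 17.4 TPM in CT26, a difference of -3.86 ± 0.141. Cdkn2a, Cdkn2b, Elavl2, Gm12666 and Tusc1 were consecutive tested genes in chr4:89274471-93335511 and were all called lower (Tusc1 not with a pseudocount of 5), and their summed mean was 1.12 TPM in LL2 and 152 TPM in CT26. Mtap, the methylthioadenosine phosphorylase gene beside Cdkn2a, which was chosen after its values were seen, was present in both, with 89.8, 104 and 103 TPM in LL2, against 139.8, 160.3 and 148 TPM in CT26.

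The largest positive differences belonged to an extracellular protease and to the simple epithelial keratins. Mmp3, the matrix metalloproteinase stromelysin-1, had 549, 885 and 587 TPM in the LL2 libraries, against 1.48, 1.93 and 2.14 TPM in the CT26 libraries (chr9:7445822-7455975), a difference of 7.86 ± 0.188 (limma adjusted p = 6.21e-08). Krt18 had 305, 227 and 283 TPM in the LL2 libraries, against 0, 0.338 and 0.269 TPM in the CT26 libraries (chr15:102028180-102032027), a difference of 7.82 ± 0.142 (adjusted p = 1.25e-09). Its partner Krt8, on the same chromosome, had 261, 146 and 204 TPM in LL2, against 0.127, 0.121 and 0.199 TPM in CT26, a difference of 7.44 ± 0.188. For all 3 genes the lowest LL2 library was far above the highest CT26 library. Of 24 epithelial markers 7 were tested. Krt8, Krt18, Ocln and Spint1 were higher, and these 4 passed the filter through the LL2 libraries, being under 1 TPM in every CT26 library. Spint1, a protease inhibitor, averaged 2.71 TPM in LL2 and 0.214 TPM in CT26, and Esrp1, an epithelial splicing factor, was lower with 0.00648 TPM in LL2 and 2.01 TPM in CT26; both were under 2-fold with a pseudocount of 5. Cldn3, of tight junctions, was listed at 0 in all 6 libraries. Epcam, an adhesion molecule, averaged 0.0211 TPM in LL2 and 0 TPM in CT26. Ocln, a tight junction protein, averaged 7.46 TPM in LL2 and 0.151 TPM in CT26, and Cdh1, the epithelial cadherin, averaged 1.01 TPM in LL2 and 0.965 TPM in CT26 and was not tested.

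The other named genes with large positive differences were varied in kind. Nptx1, a secreted neuronal pentraxin, had 178, 165 and 149 TPM in the LL2 libraries, against 0, 0.0469 and 0 TPM in the CT26 libraries. Ntn1, the guidance protein netrin-1, had 144, 134 and 137 TPM in LL2, against 1.84, 2.14 and 3.58 TPM in CT26, a difference of 5.34 ± 0.163. Ptprn, a protein of dense-core vesicles, averaged 119 ± 5.16 TPM in LL2 and 3.22 ± 0.926 TPM in CT26 (SD, n = 3 each). Sema3e, another guidance molecule, averaged 26.1 TPM in LL2 and 0.0166 TPM in CT26. Syt13, Zic2, Gpr149, Acsl6 and Artn, the last a neurotrophic ligand, averaged between 21.1 and 38.9 TPM in LL2 and were listed at 0 in the 3 CT26 libraries. Scara3, a scavenger receptor family member, had 94.7, 88.7 and 83.2 TPM in LL2, against 0.165, 0.166 and 0.467 TPM in CT26, and Rbp4, the plasma carrier of retinol, differed by 5.34 ± 0.137. The groups did not overlap in these genes, as the rule that named them required.

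Genes that act in or answer growth factor and MAPK signalling were more often higher than lower in LL2. Of 19 tested members of that list, 10 were higher and 1 lower, with a median difference of 1.08. Spry2, a feedback inhibitor of receptor tyrosine kinases, had 82.7, 78.7 and 90.7 TPM in the LL2 libraries, against 8.65, 6.73 and 6.35 TPM in the CT26 libraries, a difference of 3.38 ± 0.11 (limma adjusted p = 2.01e-08). Spry4, of the same family, had 62.8, 70.3 and 69.7 TPM in LL2, against 8.12, 4.78 and 7.75 TPM in CT26. Every LL2 library was above every CT26 library in both. Etv1, an ETS transcription factor, differed by 3.94 ± 0.095, with 50.1 TPM in LL2 and 2.34 TPM in CT26, and its relative Etv4 differed by 2.37 ± 0.132. Egfr, the epidermal growth factor receptor, had 21, 22.6 and 20.4 TPM in LL2, against 4.21, 4.91 and 4.18 TPM in CT26, while Erbb2, its relative, went the other way with 9.61 TPM in LL2 and 23.1 TPM in CT26, a difference of -1.18 ± 0.106 that was under 2-fold with a pseudocount of 5 and after quantile normalization. Myc averaged 338 ± 15.4 TPM in LL2 and 125 ± 10.3 TPM in CT26 (SD, n = 3 each).

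Several targets of p53 were higher, and Trp53 itself differed by less than 2-fold. Of 13 tested genes of p53 targets and cyclin-dependent kinase inhibitors, 5 were higher and 2, Cdkn2a and Cdkn2b, were lower. Cdkn1a, which encodes the kinase inhibitor p21, had 259, 321 and 248 TPM in the LL2 libraries, against 43.7, 40.3 and 53.9 TPM in the CT26 libraries, a difference of 2.56 ± 0.131 (adjusted p = 1.07e-06). Eda2r, a death receptor of the TNF receptor family, had 20.7, 25.4 and 18.2 TPM in LL2, against 0.798, 0.711 and 0.85 TPM in CT26. Ccng1, Zmat3 and Phlda3 differed by 1.57, 2.04 and 1.40. Trp53 averaged 272 ± 12.4 TPM in LL2 and 219.9 ± 9.28 TPM in CT26, a difference of 0.31 ± 0.0578 that did not reach 2-fold. The plot by library shows the p53, keratin and MAPK genes together with those described below.

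**Figure D2:**
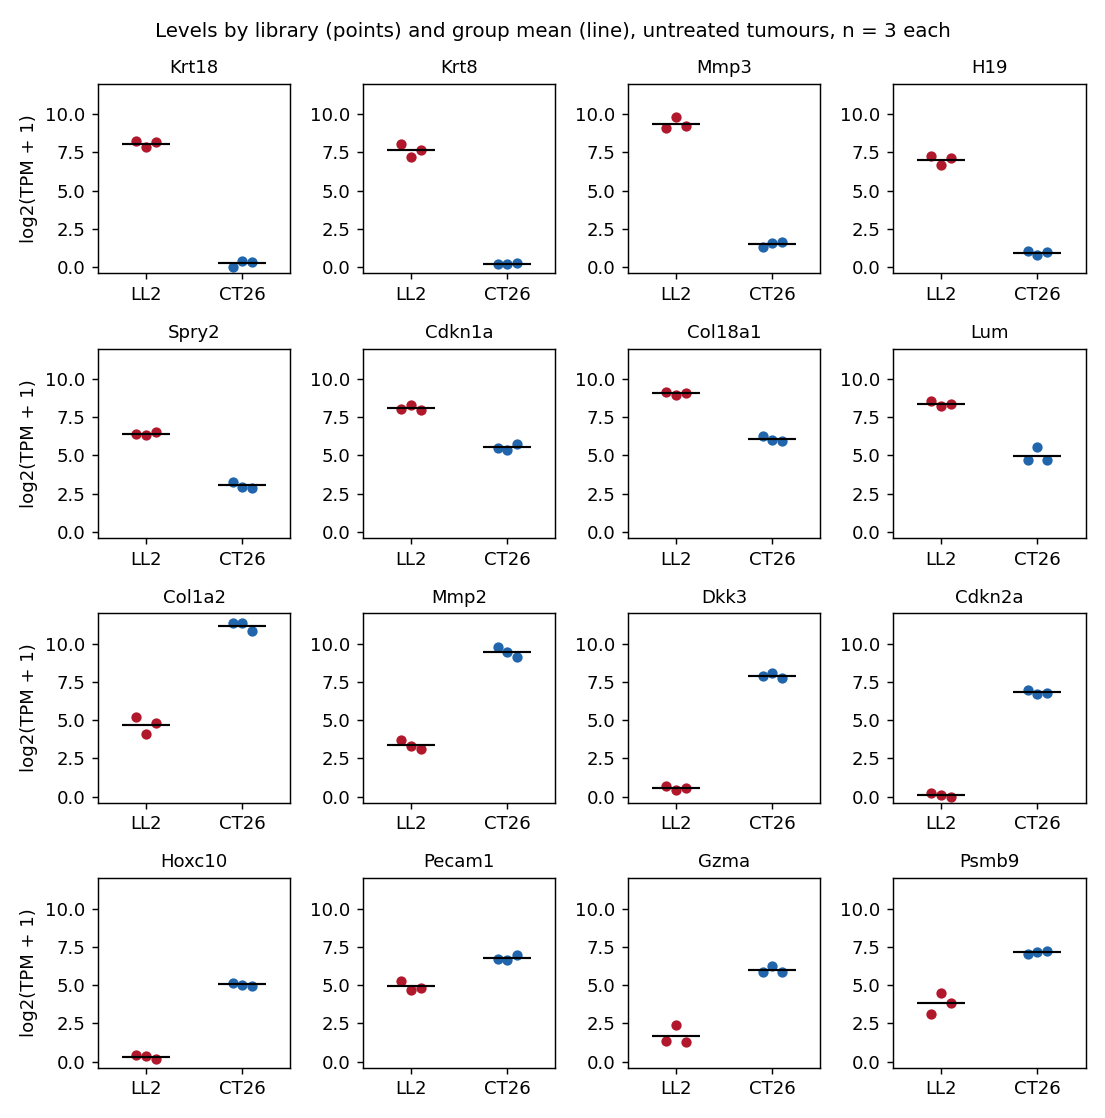
log2(TPM + 1) of 16 genes in each library, with the 3 LL2 libraries left of the 3 CT26 libraries in each panel. Each library is 1 point, and a line marks each group mean. Krt18, Krt8, Mmp3, H19, Spry2, Cdkn1a, Col18a1 and Lum were higher and Col1a2, Mmp2, Dkk3, Cdkn2a, Hoxc10, Pecam1, Gzma and Psmb9 lower in LL2, and in none of the 16 do the libraries of the groups overlap.

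The lines differed in genes that mark position and cell identity in the embryo. Of 32 tested genes of the Hox clusters, 18 were lower in LL2 and 1 was higher, with a median of -1.09. With a pseudocount of 5 the lower genes numbered 10, and the higher ones numbered 3 with a pseudocount of 0.1 and 2 with each other scaling. Of the 32, 8 were under 1 TPM in every LL2 library and were tested through the CT26 libraries. Hoxc10 had 0.352, 0.291 and 0.117 TPM in the LL2 libraries, against 35, 31.8 and 30.5 TPM in the CT26 libraries, a difference of -4.74 ± 0.119 (limma adjusted p = 4.88e-09), and Hoxc11, Hoxa9 and Hoxb9 differed by -3.72, -3.90 and -3.82. Whole stretches of a cluster moved together: 8 consecutive tested genes from Hoxc12 to Hoxc4 (chr15:102936757-103036852) summed to a mean of 2.78 TPM in LL2 and 93.6 TPM in CT26. The 6 genes from Hoxb13 to Hoxb5 (chr11:96194316-96306121) summed to 16.3 TPM in LL2 and 87.8 TPM in CT26. Hoxd10 was the exception, higher in LL2 with 14.8, 12.2 and 14 TPM in LL2, against 0.486, 0.524 and 0.581 TPM in CT26. All of these encode homeodomain factors that set position along the body axis.

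Of 42 other developmental transcription factors 25 were tested, and of these 15 were higher and 5 lower. Of the 25, 8 were under 1 TPM in every CT26 library and 1 in every LL2 library, so they were tested through the group where they were high. The higher genes numbered 6 with a pseudocount of 5 and 8 with a filter of 5 TPM, and the lower ones 3 with a pseudocount of 5 and after quantile normalization. Meis1, a cofactor of Hox proteins, had 23.9, 21.2 and 22.6 TPM in the LL2 libraries, against 0.113, 0.092 and 0.127 TPM in the CT26 libraries, a difference of 4.41 ± 0.109. Eya1, a coactivator in organ formation, differed by 4.23 ± 0.115. Gata2, Sox9 and Pax6, which act in blood, cartilage and eye development among other places, differed by 2.93, 2.85 and 2.72. The CT26 libraries were all lower than the LL2 libraries in these genes.

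Imprinted genes, expressed from 1 parental allele, split in both directions. Of 18 tested, 7 were higher and 4 lower. H19, a maternally expressed non-coding RNA, had 150.2, 101 and 139 TPM in the LL2 libraries, against 1.03, 0.719 and 0.929 TPM in the CT26 libraries, a difference of 6.10 ± 0.148 (limma adjusted p = 5.34e-09). Igf2, the growth factor gene next to H19 that is expressed from the paternal allele, was lower by contrast, with 0.138, 0.000425 and 1.34 TPM in LL2, against 29.6, 23.1 and 16.3 TPM in CT26, a difference of -4.08 ± 0.356. Igf2r, the receptor that clears IGF2, averaged 116 ± 6.58 TPM in LL2 and 14.2 ± 1.15 TPM in CT26, and Airn, the non-coding RNA antisense to Igf2r, differed by 3.98 ± 0.185, although reads of an antisense pair can be told apart only if strand was used in counting, and that setting was not given in the sources used here. Peg3, a paternally expressed zinc finger gene, had 40.4, 37.9 and 32.8 TPM in LL2, against 0.917, 0.736 and 0.881 TPM in CT26. Mest, also paternally expressed, was lower, with 20.1 TPM in LL2 and 88.5 TPM in CT26. The H19 and Igf2 differences had opposite signs in every LL2 library against every CT26 library.

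The extracellular matrix differed in composition. Col1a2 and Col1a1, the chains of collagen I, were low in LL2. Col1a2 had 36.5, 16.5 and 27 TPM in the LL2 libraries, against 2703, 2599 and 1818 TPM in the CT26 libraries (chr6:4504814-4541544), a difference of -6.47 ± 0.327 (limma adjusted p = 2.46e-05), and Col1a1 had 47.4, 18.5 and 27.8 TPM in LL2, against 964, 804 and 569 TPM in CT26. Col5a2, of the collagen that co-assembles with collagen I, averaged 27.2 ± 11.9 TPM in LL2 and 811 ± 106 TPM in CT26 (SD, n = 3 each). Col3a1 was abundant in both, with 2625, 2178 and 2596 TPM in LL2, against 4799.5, 4702 and 3107 TPM in CT26, and its difference of -0.75 ± 0.18 reached 2-fold only after quantile normalization, of the alternatives run. Of 17 tested matrix collagens, 6 were lower and 2 higher, with a median of -0.75. Col18a1, a basement membrane collagen from which endostatin is cut, had 581, 506 and 548 TPM in LL2, against 74.9, 62.7 and 61.2 TPM in CT26, a difference of 3.02 ± 0.0864, and Col6a3 had 182, 92.1 and 132 TPM in LL2, against 29.9, 20.7 and 18 TPM in CT26. LL2 library 2 was the lowest of its group in 15 of the 17 collagens.

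Fibroblast genes and matrix enzymes also went both ways. Of 15 tested fibroblast markers, 7 were lower and 3 higher, and their median was -0.75. Pdgfrb, a receptor of fibroblasts and pericytes, had 20.1, 11.4 and 10.1 TPM in LL2, against 228, 175 and 160.2 TPM in CT26, and Pdpn differed by -3.77 ± 0.126. Lum, a collagen-binding proteoglycan, went the other way with 377, 301 and 330.4 TPM in LL2, against 25.4, 44.9 and 25 TPM in CT26, a difference of 3.41 ± 0.239, as did Dpt, which differed by 3.36 ± 0.343. Lox, the enzyme that cross-links collagen, had 3, 1.96 and 2.03 TPM in LL2, against 342, 302 and 202 TPM in CT26. Mmp2, gelatinase A, had 12, 8.79 and 7.89 TPM in LL2, against 874, 701 and 576 TPM in CT26, a difference of -6.09 ± 0.19 (adjusted p = 3.09e-07), opposite to Mmp3. Over 13 tested metalloproteinases and inhibitors, 3 were higher, Mmp3, Mmp10 and Mmp12, and 3 were lower, Mmp2, Timp1 and Timp3, with Mmp10 under 2-fold at a pseudocount of 5. Dkk3, a secreted protein of the dickkopf family, had 0.608, 0.344 and 0.498 TPM in LL2, against 238, 269.5 and 219.5 TPM in CT26 (chr7:112116017-112159057), and its relative Dkk2, an inhibitor of Wnt signalling chosen after its values were seen, averaged 257 TPM in LL2 and 27.4 TPM in CT26. A collagen level in these libraries can come from tumour cells or from fibroblasts, and their shares were not tested.

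**Figure D3:**
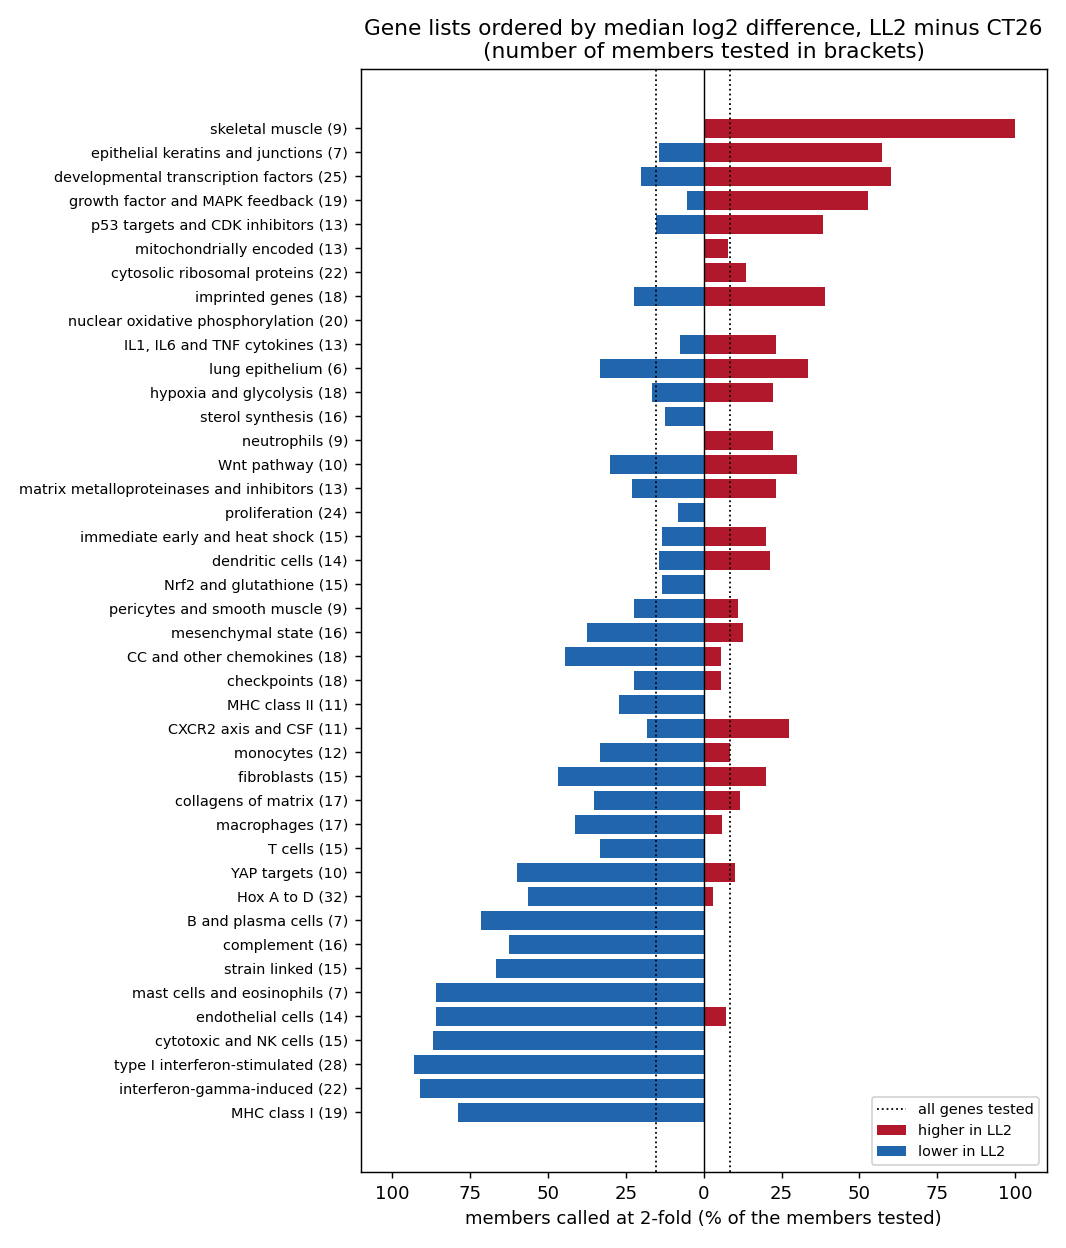
Tested members called higher in LL2 (red bars to the right) and lower (blue bars to the left) in each gene list with at least 6 tested members, as a percentage of the tested members, whose number is in brackets. Lists run from the highest median log2 difference at the top to the lowest, and the dotted lines stand at the 8.45% and 15.4% of all tested genes. Skeletal muscle genes, developmental transcription factors and growth factor and MAPK feedback genes lean to the LL2 side, and interferon, MHC class I and cytotoxic genes lean to the CT26 side. Of the tested members, 7 of 9 muscle genes and 8 of 25 developmental factors were under 1 TPM in every CT26 library. So were 4 of 15 cytotoxic genes in every LL2 library. The filter thus set part of the bars of these lists in advance.

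Interferon-stimulated genes were lower in LL2 almost throughout. Of 28 tested genes of the type I list, 26 were lower and none was higher, with a median of -2.07, and of 22 genes of the interferon-gamma list, 20 were lower and none was higher, with a median of -2.15. Oasl1, an antiviral oligoadenylate synthetase-like protein, had 9.25, 22.1 and 16 TPM in the LL2 libraries, against 179.6, 187 and 153 TPM in the CT26 libraries, a difference of -3.45 ± 0.305 (limma adjusted p = 0.000165). Irf7, the transcription factor that amplifies type I interferon, averaged 66.8 ± 34.7 TPM in LL2 and 336 ± 70.8 TPM in CT26 (SD, n = 3 each). Tgtp2, an interferon-gamma-induced GTPase of the IRG family, had 6.31, 21.2 and 10.2 TPM in LL2, against 133, 172 and 168 TPM in CT26, a difference of -3.69 ± 0.433 (adjusted p = 0.00088). Gbp3, a guanylate-binding protein, had 11.7, 41.6 and 28.8 TPM in LL2, against 234, 273 and 245 TPM in CT26. In each of these the highest LL2 library stayed below the lowest CT26 library.

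The 3 LL2 libraries were spread widely in these genes and in the same order. Library 1 was the lowest LL2 library in 28 of the 28 type I genes and library 2 the highest in 28, and the summed TPM of the list was 635, 1709 and 1241 in LL2, against 4409, 4728 and 3683 in CT26. In the interferon-gamma list library 1 was lowest in 21 of the 22 genes and library 2 highest in 22, with sums of 351, 880.0 and 538 TPM in LL2 and 2122, 2677 and 2626 TPM in CT26. Cxcl9, an interferon-gamma-induced chemokine for T cells, had 4.77, 32.3 and 6.87 TPM in LL2, against 47.1, 78.8 and 108 TPM in CT26, a difference of -2.71 ± 0.775 (adjusted p = 0.0277). The call of the gene Cxcl9 was lost without LL2 library 1 or 3 or CT26 library 2 or 3, at differences of -2.21 to -2.66 and adjusted p of 0.0558 to 0.0885. Leaving out 1 library in turn gave 22 to 28 lower genes of the 28 and 18 to 20 of the 22.

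The promoters of 4 of these genes are printed to show the elements at which interferon signals act. They are the 250 bases before the annotated start in RefSeq on build GRCm38.p6, on the strand of the gene, and capitals mark matches to the interferon-stimulated response element, searched as GAAANNGAAA on both strands. The window of Ifit3b is chr19:34607707-34607956 on the plus strand, that of Isg15 chr4:156200819-156201068 on the minus strand, that of Tgtp2 chr11:49064213-49064462 on the minus strand and that of Gbp7 chr3:142530086-142530335 on the plus strand. For each of the 2 lists they are the 2 genes with the largest fall among those with a match and no annotated exon in the window, a choice made with their values known.
Ifit3b: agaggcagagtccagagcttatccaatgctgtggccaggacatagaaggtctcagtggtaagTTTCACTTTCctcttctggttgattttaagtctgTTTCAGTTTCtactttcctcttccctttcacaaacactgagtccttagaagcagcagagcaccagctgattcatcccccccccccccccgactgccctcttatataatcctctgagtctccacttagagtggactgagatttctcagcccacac
Isg15: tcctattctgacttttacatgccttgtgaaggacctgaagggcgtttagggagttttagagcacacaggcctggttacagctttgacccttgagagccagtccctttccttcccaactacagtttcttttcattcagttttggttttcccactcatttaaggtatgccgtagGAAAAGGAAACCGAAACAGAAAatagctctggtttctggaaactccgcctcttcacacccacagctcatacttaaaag
Tgtp2: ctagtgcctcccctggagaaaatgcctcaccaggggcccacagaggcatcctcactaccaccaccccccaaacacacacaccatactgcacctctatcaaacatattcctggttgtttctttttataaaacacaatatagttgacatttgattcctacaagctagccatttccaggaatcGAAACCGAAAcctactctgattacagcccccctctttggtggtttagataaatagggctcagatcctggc
Gbp7: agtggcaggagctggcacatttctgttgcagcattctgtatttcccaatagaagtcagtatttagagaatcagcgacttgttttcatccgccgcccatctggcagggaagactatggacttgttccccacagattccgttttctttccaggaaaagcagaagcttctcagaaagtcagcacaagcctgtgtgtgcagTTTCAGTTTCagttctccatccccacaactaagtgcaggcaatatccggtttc
The Ifit3b window held 2 matches, Isg15 had 3 that overlap each other, the nearest 56 bases before the start, and Tgtp2 and Gbp7 had 1 each, 60 and 43 bases before it.

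Ifit3b, a member of the antiviral IFIT family, had 4.83, 16.5 and 13.4 TPM in LL2, against 54.5, 65.9 and 37.8 TPM in CT26, a difference of -2.20 ± 0.486 (limma adjusted p = 0.0105). Isg15, a ubiquitin-like protein, had 40.4, 129 and 100.1 TPM in LL2, against 353, 391 and 286 TPM in CT26, a difference of -2.06 ± 0.469. Gbp7, a guanylate-binding protein, had 10.3, 27.3 and 17.8 TPM in LL2, against 78.7, 106 and 94.7 TPM in CT26, a difference of -2.36 ± 0.351. None of these groups overlapped, although LL2 library 2 was more than 2 times library 1 in each. The element was found in 9 of 19 promoters of the type I list and in 11 of 15 of the interferon-gamma list for which RefSeq gave a promoter, against 3.04% of 27025 promoters of the same length. It was found in 6.79% of the promoters of genes lower in LL2 and 1.67% of those of genes higher in LL2. Over all tested genes with a promoter the share was 2.83%. The gamma-activated site, searched as TTCNNNGAA, was found in 3 of 19, 8 of 15 and 7.18% of all promoters, and 17 promoters held a site overlapping an interferon-stimulated response element. For the gamma-activated site the shares were 7.80% in genes lower in LL2 and 5.25% in genes higher in LL2. Over all tested genes with a promoter its share was 6.13%. A match describes the letters of the C57BL/6J reference and not a bound site.

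Genes of MHC class I presentation followed the interferon genes. Of 19 tested, 15 were lower and none was higher, with a median of -2.18. Psmb9, an immunoproteasome subunit, had 7.83, 21.2 and 13 TPM in the LL2 libraries, against 132, 146 and 151 TPM in the CT26 libraries, a difference of -3.36 ± 0.339 (limma adjusted p = 0.000345). Tap1, of the peptide transporter, had 18.8, 45.4 and 27.1 TPM in LL2, against 216, 242 and 219 TPM in CT26, and B2m, the light chain, averaged 1525 ± 522 TPM in LL2 and 3639.7 ± 74.9 TPM in CT26 (SD, n = 3 each). H2-K1, a classical heavy chain, had 274, 660.0 and 386 TPM in LL2, against 2199, 2279 and 2171 TPM in CT26, a difference of -2.43 ± 0.328. H2-D1, the other classical heavy chain, had 511, 1084 and 730.1 TPM in LL2, against 982, 1015 and 995 TPM in CT26, so that the groups overlapped, and its difference of -0.43 ± 0.272 was not called (adjusted p = 0.209). Without LL2 library 2 the difference of the gene H2-D1 was -0.71, with an adjusted p of 0.00302. H2 heavy chain genes differ in sequence between the haplotypes and resemble each other, so levels of single H2 genes are uncertain against a C57BL/6J reference.

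**Figure D4:**
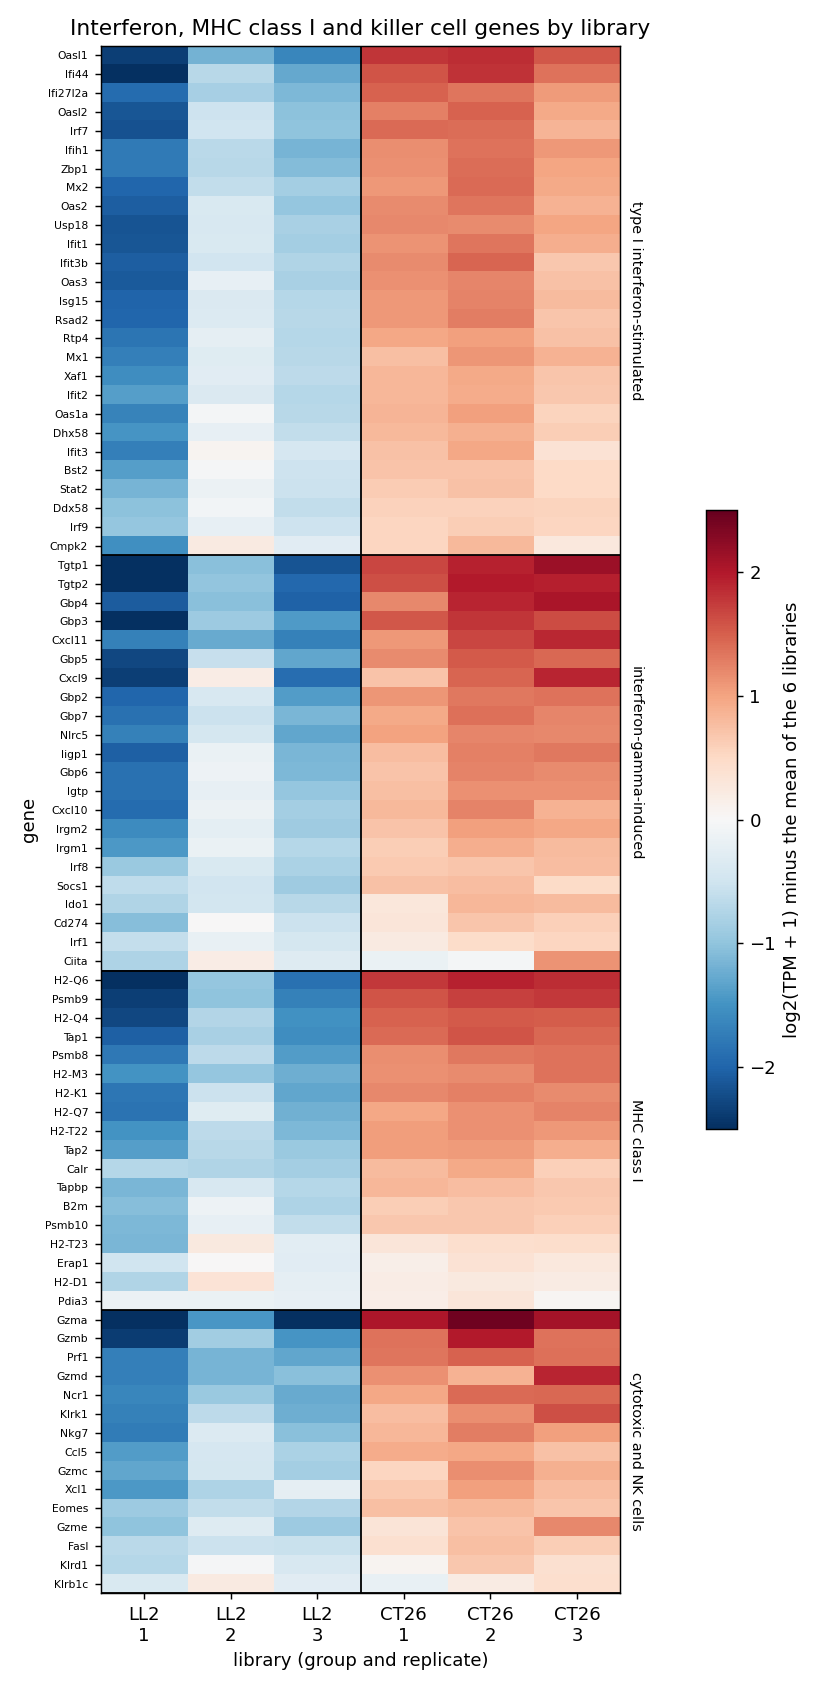
log2(TPM + 1) of the type I interferon, interferon-gamma, MHC class I and cytotoxic or NK cell genes (rows) in the 3 LL2 and 3 CT26 libraries (columns), each row shown as its difference from the row mean over the 6 libraries. The LL2 columns are lower in most rows, and in most rows LL2 library 1 is below LL2 library 2.

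Of the genes known to differ between the strains, H2-Ea, Ifi202b and Gbp2b were at or near 0 in LL2 and high in CT26. H2-Ea, the alpha chain of the class II molecule I-E, was listed at 0 in the 3 LL2 libraries and had 105, 167 and 356 TPM in the CT26 libraries. Ifi202b, a cytosolic DNA-binding protein of the p200 family, was listed at 0 in LL2 and had 225, 238 and 212 TPM in CT26. Gbp2b, a guanylate-binding protein, had 0.0538, 0.13 and 0.0945 TPM in the LL2 libraries, against 222, 271 and 288 TPM in the CT26 libraries (chr3:142594847-142619179), the largest negative difference of the named genes that were above 0 in LL2, at -7.89 ± 0.105 (adjusted p = 1.48e-10). The CT26-NY-ESO-1 controls were at the CT26 side in all 3 genes, with means of 375, 169.7 and 484 TPM. H2-Q2, a class Ib gene, had 0.0658, 0.033 and 0.0316 TPM in LL2, against 95.1, 99.6 and 94.7 TPM in CT26. Of 15 tested strain-linked genes, 10 were lower and none was higher in LL2. Of the 15, 3 were under 1 TPM in every LL2 library and were tested through the CT26 libraries. The members were picked as strain-linked, so their count does not test an effect of strain. Ifi202b and Gbp2b are themselves interferon-induced, and strain and interferon level cannot be told apart in them.

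Genes of cytotoxic lymphocytes and NK cells were lower in LL2. Of 15 tested, 13 were lower and none was higher, with a median of -1.75, in each case with 13 lower when 1 library was left out. Of the 15, 4 were under 1 TPM in every LL2 library and were tested through the CT26 libraries. Gzma, granzyme A, had 1.5, 4.14 and 1.39 TPM in the LL2 libraries, against 56.2, 75.2 and 58.5 TPM in the CT26 libraries, a difference of -4.35 ± 0.308 (limma adjusted p = 2.29e-05). Gzmb, granzyme B, had 1.81, 6.94 and 4.24 TPM in LL2, against 36.1, 55.9 and 36.3 TPM in CT26, and Prf1, perforin, had 0.617, 1.35 and 1.14 TPM in LL2, against 12.3, 13.6 and 12.6 TPM in CT26. Ncr1, the NK receptor NKp46, averaged 1.01 TPM in LL2 and 10.5 TPM in CT26. LL2 library 1 was the lowest of its group in 14 of these 15 genes, as it was in the interferon lists. T cell markers were lower in 5 of 15 genes, and that count was 2 without LL2 library 1, 8 without LL2 library 2 and 10 without CT26 library 1. It was 4 with median-of-ratios scaling and 3 after quantile normalization. Of these 15, 2 were under 1 TPM in every LL2 library and were tested through the CT26 libraries. The summed level of the 15 T cell markers was 16.0, 40.2 and 22.4 TPM in LL2 and 50.9, 70.4 and 82.3 TPM in CT26. The part of the lymphocyte markers in the interferon and MHC differences was not tested.

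Myeloid markers were lower in part. Of 17 tested macrophage markers, 7 were lower and 1 higher, with a median of -0.76. C1qa, a chain of the complement starter C1q made by macrophages, had 415, 500.4 and 403 TPM in the LL2 libraries, against 1060.4, 1080.5 and 935 TPM in the CT26 libraries, and Csf1r, the macrophage growth factor receptor, differed by -1.23 ± 0.0799. Apoe, a lipid carrier made by macrophages, averaged 529 ± 71.8 TPM in LL2 and 851 ± 57.3 TPM in CT26 (SD, n = 3 each) and was not called at 2-fold, at -0.69 ± 0.0958. Mertk, a receptor for the uptake of dead cells, was the higher gene, with 26.1, 22.3 and 23.5 TPM in LL2, against 5.76, 5.46 and 4.39 TPM in CT26. Of 12 monocyte markers 4 were lower and 1 higher, with a median of -0.68. Of 14 dendritic cell markers 10 were below 0 in difference, as were 8639 of the 15550 tested genes. Those above 0 numbered 4 as deposited, 5 with median-of-ratios scaling and 6 after quantile normalization. The median of the 14 was -0.32, and their summed level was 539, 822 and 704 TPM in LL2, against 1153, 1114 and 1013 TPM in CT26. At 2-fold 2 of these 14 were lower, 0 to 2 with 1 library left out, and 3 were higher, among them Clec9a, a receptor of cross-presenting dendritic cells, with 13.3, 12 and 11.8 TPM in LL2, against 0.684, 1.25 and 1.88 TPM in CT26. Of 9 tested neutrophil markers 2, Clec4d and Il1r2, were higher and none was lower, and their summed level of 62.8, 77.2 and 63.5 TPM in LL2 overlapped that of 54.3, 66.2 and 57.3 TPM in CT26. The neutrophil count of higher genes was 0 with a pseudocount of 5, and that of lower genes was 0 to 2 with 1 library left out. Mast cell and eosinophil markers were lower in 6 of 7 genes, and that count was 4 to 7 with 1 library left out. Of these 7, 2 were under 1 TPM in every LL2 library and were tested through the CT26 libraries.

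Endothelial genes were lower in LL2. Of 14 tested, 12 were lower and 1, Vwf, was higher, with a median of -1.71, and the summed level was 293, 237 and 251 TPM in LL2 and 742, 674 and 735 TPM in CT26. The lower genes numbered 10 with median-of-ratios scaling and 9 after quantile normalization. Kdr, the VEGF receptor 2, had 9.25, 7.06 and 7.7 TPM in the LL2 libraries, against 46.3, 47.7 and 47.2 TPM in the CT26 libraries, a difference of -2.43 ± 0.0954 (limma adjusted p = 6.18e-08). Pecam1 (CD31) had 37.6, 24.3 and 27.4 TPM in LL2, against 106, 98.6 and 125 TPM in CT26, a difference of -1.87 ± 0.162, and Cdh5, the endothelial cadherin, differed by -2.11 ± 0.173. Vwf, von Willebrand factor, had 4.39, 3.15 and 5.17 TPM in LL2, against 0.227, 0.955 and 0.606 TPM in CT26 and was under 2-fold with a pseudocount of 5. Vegfa, the ligand of Kdr, averaged 39.1 ± 5.83 TPM in LL2 and 175 ± 27.7 TPM in CT26, a difference of -2.13 ± 0.14. The CT26-NY-ESO-1 controls were nearer to LL2 than to CT26 in 11 of the 12 lower endothelial genes, with a Pecam1 mean of 26.1 TPM.

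Skeletal muscle genes were higher in LL2 and varied between libraries. Of 13 listed, 9 were tested, 7 of them under 1 TPM in every CT26 library and so tested through LL2, which leaves little to read from all 9 being higher. The sum of these was 96.3, 140 and 208 TPM in LL2, against 4.33, 3.96 and 7.77 TPM in CT26. Acta1, skeletal actin, had 41.2, 61.5 and 85 TPM in the LL2 libraries, against 0.262, 0.142 and 0.617 TPM in the CT26 libraries, and Tnnt3, a fast troponin, averaged 18.5 TPM in LL2 and 0.809 TPM in CT26. In the CT26-NY-ESO-1 controls Acta1 spanned 0.135 to 77.2 TPM. With OK-432 the Acta1 difference was 2.37 and was not called (limma adjusted p = 0.359). The content of muscle tissue in the pieces was not measured by other means.

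Among secreted immune mediators, Il33, an alarmin of the IL-1 family, was higher in LL2 with 75.1, 58.7 and 73.4 TPM in the LL2 libraries, against 3.05, 3.52 and 2.98 TPM in the CT26 libraries, a difference of 4.06 ± 0.11 (limma adjusted p = 7.2e-09). Of 18 tested chemokines of the CC and other classes, 8 were lower and 1 was higher, with a median of -0.64. The higher one was Ccl11, eotaxin-1, which recruits eosinophils, with means of 39.8 TPM in LL2 and 4.04 TPM in CT26. Higher genes of this list numbered 2 after quantile normalization and without LL2 library 1. Cxcl1 and Cxcl2, neutrophil chemokines of the CXCR2 receptor, differed by 1.72 and 1.69, whereas Cxcl3, of the same family, differed by -2.18; Cxcl2 was under 2-fold with a pseudocount of 5. Complement genes were lower in 10 of 16 and higher in none, with a median of -1.20, and the lower ones numbered 8 after quantile normalization. Cfb, factor B of the alternative pathway, had 11.9, 48.3 and 22.3 TPM in LL2, against 330.1, 355 and 259 TPM in CT26, and C3, the central component, averaged 8.25 ± 4.33 TPM in LL2 and 32.4 ± 7.24 TPM in CT26. Among YAP targets 6 of 10 were lower, with Ccn2 and Ankrd1, a matrix-associated and a nuclear protein, at -3.90 and -3.74. The lower YAP targets numbered 4 with median-of-ratios scaling and 4 after quantile normalization. Hypoxia and glycolysis genes were split, 4 higher and 3 lower of 18. Adm, adrenomedullin, and Hk2, hexokinase 2, differed by 2.75 and 1.39, and Car9, carbonic anhydrase 9, differed by -2.01.

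Differences were not even along the genome. Of 423 tested protein-coding genes of the X chromosome, 142 (33.6%) were lower and 26 (6.15%) higher in LL2, with a median of -0.71, against 14.7% lower and 7.91% higher and a median of -0.11 over the 12623 tested protein-coding genes. Chromosomes 12 and 13 had the highest medians of the autosomes, 0.27 and 0.23, and chromosome 4 the lowest, -0.34. Pnma5, an X-linked gene of the paraneoplastic antigen family, averaged 0.0142 ± 0.0246 TPM in LL2 and 127 ± 3.25 TPM in CT26 (SD, n = 3 each). Xist, the RNA that coats the inactive X chromosome, was present in the libraries of both groups, with 116, 100.2 and 91.2 TPM in the LL2 libraries, against 33.8, 43 and 44.1 TPM in the CT26 libraries, a difference of 1.33 ± 0.12. The other 7 genes of the sex-linked list, Tsix and 6 Y-linked genes, were listed at 0 in all 6 libraries. Of the protein-coding genes placed on the Y chromosome, 3 predicted genes were tested, and Gm47283, named after its values were seen, was called higher, with 149.5, 129 and 96.5 TPM in LL2, against 49.2, 45.9 and 36.9 TPM in CT26. Whether the reads of Gm47283 came from a Y chromosome was not tested, so its level is not read as a mark of male cells. Neighbouring tested protein-coding genes were called the same way in 30 runs of at least 5 consecutive lower genes. These runs held 205 of the 1851 lower protein-coding genes. There was 1 run of higher genes, with 6 of the 998 higher protein-coding genes, at chr6:146796055-147264183. Pthlh, the gene of parathyroid hormone-related protein, stood at its end. The runs of lower genes held the Hox and Cdkn2a stretches, guanylate-binding protein clusters on chromosomes 3 and 5 and granzyme genes on chromosome 14. Other runs were of gene families, such as H2-Q1 to H2-Q10 on chromosome 17 and Pcdhb5 to Pcdhb16 on chromosome 18. Reads shared between the members of a family were not tested. Copy number of the lines was not measured, and copy number, shared reads and regulation cannot be told apart here.

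**Figure D5:**
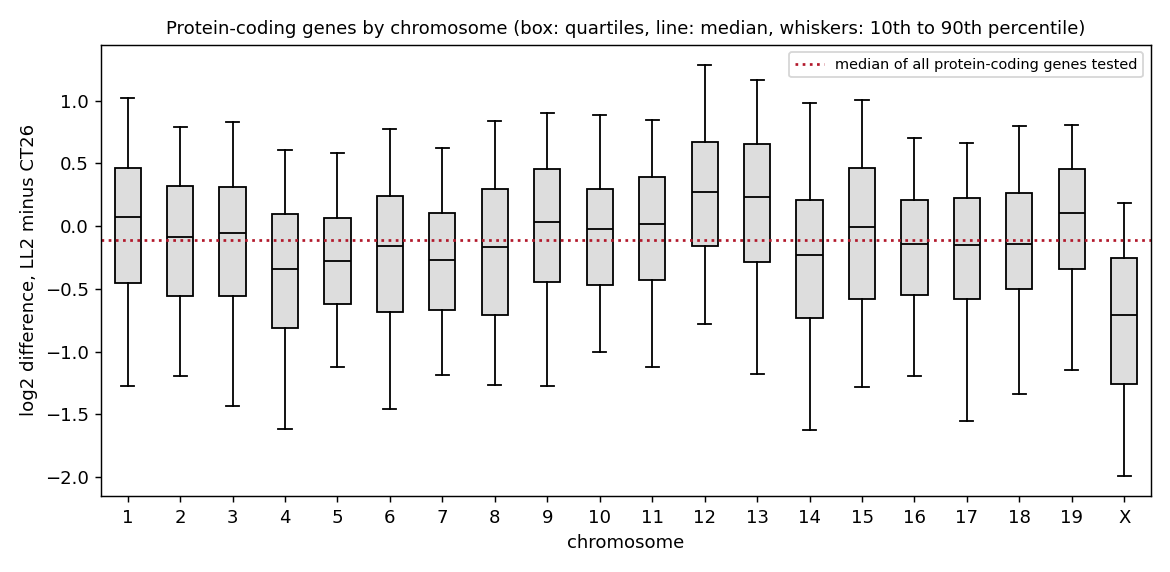
log2 difference (LL2 minus CT26) of the tested protein-coding genes by chromosome, with the median as a line, the quartiles as a box and the 10th to 90th percentile as whiskers; the dotted line is the median of all. Genes of the X chromosome have a median of -0.71, below the -0.11 of all tested protein-coding genes.

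Ribosomal protein genes and their processed copies need to be read together. Rps2, a protein of the small ribosomal subunit, had 5499, 5269 and 5171 TPM in the LL2 libraries, against 1218, 1229 and 1224 TPM in the CT26 libraries, a difference of 2.12 ± 0.0468. Its near-identical copy Rps2-ps10, chosen after its values were seen, had 62.9, 58.2 and 53.4 TPM in LL2, against 2935, 2829 and 2903 TPM in CT26. Over Rps2 and its 14 near-identical copies the sum was 5435 ± 173 TPM in LL2 and 5158 ± 50.4 TPM in CT26 (SD, n = 3 each), a difference of 0.08. Likewise the difference of Rpl29 fell to 0.84 from 3.40 when its copies were added, and that of Rpl26 fell to 0.67 from 2.76. Of 26 genes with such copies that were called higher, 11 had a copy called lower, and 3 of those 11 kept a summed difference of at least 1. Rpl13 stayed at 1.40 with and without its copies, and was under 2-fold after quantile normalization. Among processed pseudogenes 153 of 675 (22.7%) were lower and 48 (7.11%) higher, so their levels, and those of Rps2, Rpl29 and Rpl26, are uncertain. Over the 22 ribosomal protein genes of the list the median difference was 0.60 as deposited and 0.34 after quantile normalization, under which 19 of the 22 stayed above 0.

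Mitochondrially encoded transcripts took 7.25% ± 0.0782 of the TPM in LL2 and 4.31% ± 0.155 in CT26 (SD, n = 3 each). The libraries did not overlap, and the two-sided exact permutation test over 20 assignments gave p = 0.1, the smallest this design allows. mt-Co1, a subunit of cytochrome c oxidase, averaged 16669 ± 167 TPM in LL2 and 7849.7 ± 362 TPM in CT26 and was under 2-fold after quantile normalization. All 13 mitochondrially encoded genes of the list were above 0 in difference as deposited, against 11 of 13 after quantile normalization. Because TPM is a share of a fixed total, a larger mitochondrial share lowers the other values, and rescaling without the mitochondrial genes moved the median of all genes by 0.04. Nuclear genes of oxidative phosphorylation were called in neither direction in 20 of 20, and 1 was higher with median-of-ratios scaling and after quantile normalization.

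The same lines in other libraries, 3 LL2 and 3 CT26 tumours given OK-432, showed the differences again. Between these libraries 1279 genes (8.23%) were called higher in LL2 and 2361 (15.2%) lower. Of the 1314 genes higher without OK-432, 1314 had the same sign and 1139 (86.7%) were called the same way, and of the 2392 lower genes 2388 had the same sign and 2161 (90.3%) were called. Krt18 differed by 7.77 with OK-432 and 7.82 without it, and Oasl1 by -4.28 and -3.45. The change of the difference with OK-432 passed the test in 1 of 15550 genes (0.00643%).

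Over the tested genes, CT26-NY-ESO-1 control tumours were closer to each of the others than those were to each other. Pearson's r of their libraries with the CT26 libraries was 0.911 (median) and with the LL2 libraries 0.890, against 0.858 between LL2 and CT26. The tested genes were filtered on the LL2 and CT26 libraries alone, so genes expressed only in CT26-NY-ESO-1 tumours were left out. The filter can thus favour a place of CT26-NY-ESO-1 between the other tumours, and its part in these r values was not tested. Of the 1314 genes higher in LL2, the CT26-NY-ESO-1 mean was nearer to CT26 in 919 (69.9%), and of the 2392 lower genes in 1104 (46.2%). Among the lower type I interferon genes it was nearer to CT26 in 12 of 26. It was nearer to CT26 in 20 of 20 lower interferon-gamma genes, in 13 of 13 cytotoxic genes and in 14 of 15 MHC class I genes. It was nearer to LL2 in 15 of 18 lower Hox genes and in 9 of 9 skeletal muscle genes. Of those muscle genes, 7 were tested through LL2 alone. The CT26-NY-ESO-1 mean also hides a spread, with Acta1 at 0.135 to 77.2 TPM, so the muscle count says little about likeness of the tumours. Among single genes, Col1a2 had a mean of 710.4 TPM there, Krt18 12.2 TPM, Dkk3 1.61 TPM and Mmp2 19.9 TPM. In Dkk3, Mmp2 and Cdkn2a the CT26 libraries thus stood above both other tumours, and in Krt18 the LL2 libraries did; these contrasts with CT26-NY-ESO-1 were not tested.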

How the data were processed

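The authors deposited 1 table of TPM values for 18 libraries, each summing to 1000000, with no counts. Per the submitters' processing notes the tools were Trim Galore 0.6.5, STAR 2.7.3a and StringTie 2.1.2 on build mm10. Per the labels' protocols, TRIzol was used for extraction and a stranded mRNA kit for the libraries. An annotation and a strand setting were not given in the sources used here. Depth is unknown, so no counting interval is given, and a value of exactly 0 can be a failed estimate. Reads of both tumours were placed on a C57BL/6J genome, and the effect on genes that differ between strains was not tested.

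Values were analysed as log2(TPM + 1), with genes at 1 TPM or more in at least 3 of the 6 libraries. LL2 minus CT26 was tested with limma 3.58.1 (R 4.3.3; empirical Bayes with a trend and robust), 3 libraries against 3 and no covariate. A gene was called at an adjusted p under 0.05, and at 2-fold also at a log2 difference of 1 or more. The procedure was tested on simulated data. Named genes are the 25 largest called differences in each direction with a mean of at least 5 TPM in the higher group and groups that did not overlap, and of each list up to 8 called members and 2 others; genes outside this rule are marked. Predicted genes without a name were not described, and some items are not reported here. Members and lists were chosen with earlier results of these data known, so lists are described by counts with no test. Positions are from GENCODE M21, which held 15236 of the 15550 tested symbols. Copies were matched with BLAST+ blastn 2.17.0 at 95% identity over 80% of the length. Promoter sequences are from RefSeq, for 10666 of the tested genes. Alternatives were the scaling, the pseudocount, the filter, the fit and leaving out each library.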

Additional observations from a re-analysis of the deposited data

Results flagged for a closer look

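One gene differed in its tumour difference between untreated and OK-432-treated libraries. Eif3j2, a copy of the translation initiation factor gene Eif3j1, had 13.9, 13.9 and 13 TPM in the LL2 libraries, against 51.5, 53.5 and 51.5 TPM in the CT26 libraries without OK-432, a difference of -1.86. With OK-432 it was listed at 0 in LL2 and had a mean of 49.1 TPM in CT26, a difference of -5.65. The treated difference minus the untreated one was -3.78, the 1 call of limma's interaction test over 15550 genes. Eif3j2 and Eif3j1 are near-identical, so the level of either is uncertain.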

How the results depend on the processing

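The tested genes named in the report kept their direction under every alternative run, and their side of the adjusted p threshold except for Cxcl9 and H2-D1 with 1 library left out. Of 142 named 2-fold calls, 15 fell under 2-fold with a pseudocount of 5 (Cdh17, Clec4d, Cxcl2, Erbb2, Esrp1, Hoxb13, Hoxb5, Hoxc12, Hoxc4, Il1r2, Mmp10, Spint1, Tnfsf9, Tusc1 and Vwf) and 4 after quantile normalization (Erbb2, Hoxb5, Rpl13 and mt-Co1), which added Col3a1. Counts of 2-fold calls were 1494 higher and 2144 lower with median-of-ratios scaling, 1679 and 1965 after quantile normalization and 1649 and 2784 with a pseudocount of 0.1, and moved by over 1.5 times with 2 settings. With a pseudocount of 5 the 2-fold calls were 642 higher and 1374 lower, since a larger pseudocount shrinks the differences of low genes. With a filter of 5 TPM in 3 libraries 867 were higher, of 11980 genes tested. Leaving out each library in turn gave 10025 to 10518 genes called, 1301 to 1349 higher and 2336 to 2417 lower at 2-fold. It gave 2.87 to 3.03 points for the difference in mitochondrial share and -0.59 to -0.63 for the X chromosome median minus that of all protein-coding genes. The replicate block gave 10796 genes called, 1316 higher and 2392 lower. Same-numbered LL2 and CT26 libraries deviated together with r of 0.116, 0.0398 and -0.0339 across genes. Libraries of different numbers gave r from -0.157 to 0.109. No clear pairing by number was seen, and so few values cannot exclude it. Of 96 counts of calls in lists, 60 stayed within 1.5 times in every alternative. With a pseudocount of 5, lower Hox genes numbered 10, higher developmental transcription factors 6 and lower T cell and B or plasma cell genes 1 each. TPM keeps no depth, so the precision of low genes is unknown.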

Other observations

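Several other named genes were low in LL2 and high in CT26. Fabp4, a fatty acid-binding protein of fat cells and of some endothelial cells and macrophages, had 13.6, 12.6 and 8.6 TPM in the LL2 libraries, against 639, 636 and 635 TPM in the CT26 libraries. Plac8, a gene of immune and epithelial cells, was among the 4 lower genes of the monocyte list. It had 51.1, 81 and 63.3 TPM in LL2, against 960.2, 963 and 918 TPM in CT26. The whole monocyte list summed to 359, 450 and 386 TPM in LL2, against 1443, 1480 and 1366 TPM in CT26, so Plac8 made up most of its CT26 sum. Ccdc80 and Fbln2, both of secreted matrix proteins, differed by -6.60 and -6.01, and Pla2g5, a secreted phospholipase, differed by -6.56. Capn6, an atypical calpain on the X chromosome, differed by -6.69.

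Markers of B and plasma cells were lower in 5 of 7 tested genes and higher in none, and the lower genes numbered 1 with a pseudocount of 5 and with a filter of 5 TPM. Of these 7, 2 were under 1 TPM in every LL2 library and were tested through the CT26 libraries. Ighm, the heavy chain of IgM, had 10.8, 10.6 and 8.66 TPM in LL2, against 71.2, 64.3 and 81.1 TPM in CT26. Of 11 tested MHC class II genes 3 were lower, H2-Ea, H2-DMa and H2-DMb2, and none was higher. Of 18 immune checkpoint genes 4 were lower and 1 was higher, and they included both partners of a costimulatory pair. Tnfsf9, the ligand 4-1BBL, the higher gene and under 2-fold with a pseudocount of 5, averaged 8.37 TPM in LL2 and 1.85 TPM in CT26, and Tnfrsf9, its receptor on activated T and NK cells, had 9.46, 11.6 and 8.96 TPM in LL2, against 58.9, 38.1 and 57.3 TPM in CT26.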
